A study of Mus musculus with 48 samples.

Results

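The neurotrophin ligand and receptor genes Bdnf, Ntf3, Ntrk2, Ntrk3, Ngfr, Sort1 and Vgf were followed through total homogenate and synaptosomes of the ageing mouse cortex. They are 7 of the 48526 genes in the count table and were picked by symbol, with earlier results of these data known. All 7 had a matching Ensembl identifier in GENCODE. The cortex came from 12 male wild-type C57BL/6JRj mice, with 4 animals per age: 3 weeks (3w), 5 months (5m) or 18 months (18m). The sample labels call the middle age 6 months, whereas the protocol in the same labels gives 5 months, the name used here, and gives the oldest mice as 18 or 19 months. From every animal, RNA of the whole homogenate (TH) and of synaptosomes (SYN) was sequenced, each before ("input") and after pelleting of ribosomes through a sucrose cushion ("SC"), so that input_TH, SC_TH, input_SYN and SC_SYN hold 12 libraries each. Synaptosomes are pinched-off nerve terminals with attached postsynaptic membrane. The cushion pellet holds RNA that travels with ribosomes, and it can also hold other dense particles.

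Neurotrophins are secreted growth factors that keep neurons alive and adjust the strength of their synapses. They are made as longer precursors, stored in secretory granules, cut by convertases and released, and the mature factors bind Trk receptor tyrosine kinases, which pass the signal through adaptors to the MAP kinase, PI3 kinase and phospholipase C pathways. The uncut precursors bind the p75 receptor together with sortilin. In the cortex, Bdnf and its receptor TrkB are known for activity-dependent plasticity, and Vgf, a granule peptide precursor, is known as a gene induced by neurotrophins.

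Levels are given as CPM, a gene's reads scaled by the library total after TMM normalisation, and changes as log2 fold changes ± SE from edgeR's quasi-likelihood test, with p-values adjusted over all genes tested (Benjamini-Hochberg, threshold 0.05). Library totals ran from 1780267 to 18590040 reads assigned to genes, with a median of 3756951 in input_SYN, the shallowest fraction, 7298371 in SC_SYN, 8643431 in SC_TH and 10815833.5 in input_TH. In SYN, all 6 genes of a short list of dendritic and postsynaptic mRNAs, among them Camk2a and Shank1, were higher than in TH and all 7 nuclear RNAs were lower, in SC and in input alike. Astrocyte markers (10 of 10) and microglia markers (10 of 10) were also higher in SYN, and the endothelial markers (8 of 8) were lower.

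The genes lie on 7 chromosomes of GRCm38. Bdnf, brain-derived neurotrophic factor, is at chr2:109674700-109727007 on the plus strand. Ntf3, which codes for neurotrophin-3, is at chr6:126101412-126166910 on the minus strand. Ntrk2, the gene of the BDNF receptor TrkB, is at chr13:58806569-59133970 (plus), and Ntrk3, which codes for TrkC, the receptor of neurotrophin-3, is at chr7:78175959-78738012 (minus). Ngfr, which codes for p75, is at chr11:95568818-95587735 (minus), and Sort1, which codes for sortilin, is at chr3:108284082-108361511 (plus). Vgf is at chr5:137026392-137033351 (plus). Reads were counted per gene over all exons, so the 11 annotated transcripts of Bdnf, and the kinase-bearing and truncated forms among the 10 of Ntrk2 and the 20 of Ntrk3, are summed. Counting ignored strand. Annotated genes on either strand overlap Bdnf, Ntrk2, Ntrk3 and Sort1, and their reads cannot be told apart, while none overlaps Ntf3, Ngfr or Vgf.

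Base composition differed widely, from 40.9% G and C over the longest annotated transcript of Bdnf to 64.1% over that of Vgf. This matters because several age calls of Vgf depended on whether trends on GC content and length were removed. A 60-base coding stretch of each shows the contrast, chosen as the first reading-frame window within 1 exon whose GC content was the median of such windows (53.3% in Bdnf, 66.7% in Vgf), with runs of 4 or more G or C in capitals.
Vgf, chr5:137031010-137031069, plus strand: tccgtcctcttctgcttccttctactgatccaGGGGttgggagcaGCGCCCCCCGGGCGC
Bdnf, chr2:109723433-109723492, plus strand: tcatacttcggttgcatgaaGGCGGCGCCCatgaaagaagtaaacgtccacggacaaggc
Over the whole coding sequence GC content was 65.6% in Vgf and 52.1% in Bdnf, and the other members lay between 49.7% in Ntf3 and 61.9% in Ngfr.

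Per kilobase of exon, and averaged over the 12 libraries of a fraction, Vgf was the most abundant member and Ntf3 the least abundant in each of the 4 fractions. In SC_SYN the level of Vgf was 690 ± 247 CPM per kb (SD, n = 12 mice), that of Sort1 224 ± 17.7, that of Ntrk2 81.1 ± 5.99 and that of Ntrk3 16.3 ± 2.00. Bdnf stood at 8.63 ± 0.894 CPM per kb, Ngfr at 1.29 ± 0.658 and Ntf3 at 1.12 ± 0.436, and the last 2 did not differ beyond their spread. In input_TH the same order held, from 96.5 ± 22.3 CPM per kb for Vgf through 63.4 ± 3.31 for Sort1 and 28.5 ± 1.03 for Ntrk2 to 0.602 ± 0.215 for Ngfr and 0.349 ± 0.121 for Ntf3. The length is that of all annotated exons of a gene together, so genes with many transcripts, such as Ntrk2 and Ntrk3, can come out lower. Without division by length, Ntrk2 and Sort1 stood above Vgf in input_TH (mean 550 and 480 against 287 CPM), SC_TH and input_SYN. Only in SC_SYN was Vgf the highest member in CPM (mean 2052). The receptor subunits TrkB and sortilin were thus far more abundant as mRNA than the ligands Bdnf and Ntf3. Ntf3 had between 0 and 36 reads in a library and was found in 45 of 48, and Ngfr had between 3 and 94, so differences in these genes rest on few reads. Ntf3 passed the filter on low counts in 5 of the 8 fits, and within a single fraction only in SC_SYN, while the other 6 genes passed it in 8 of 8.

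**Figure D1:**
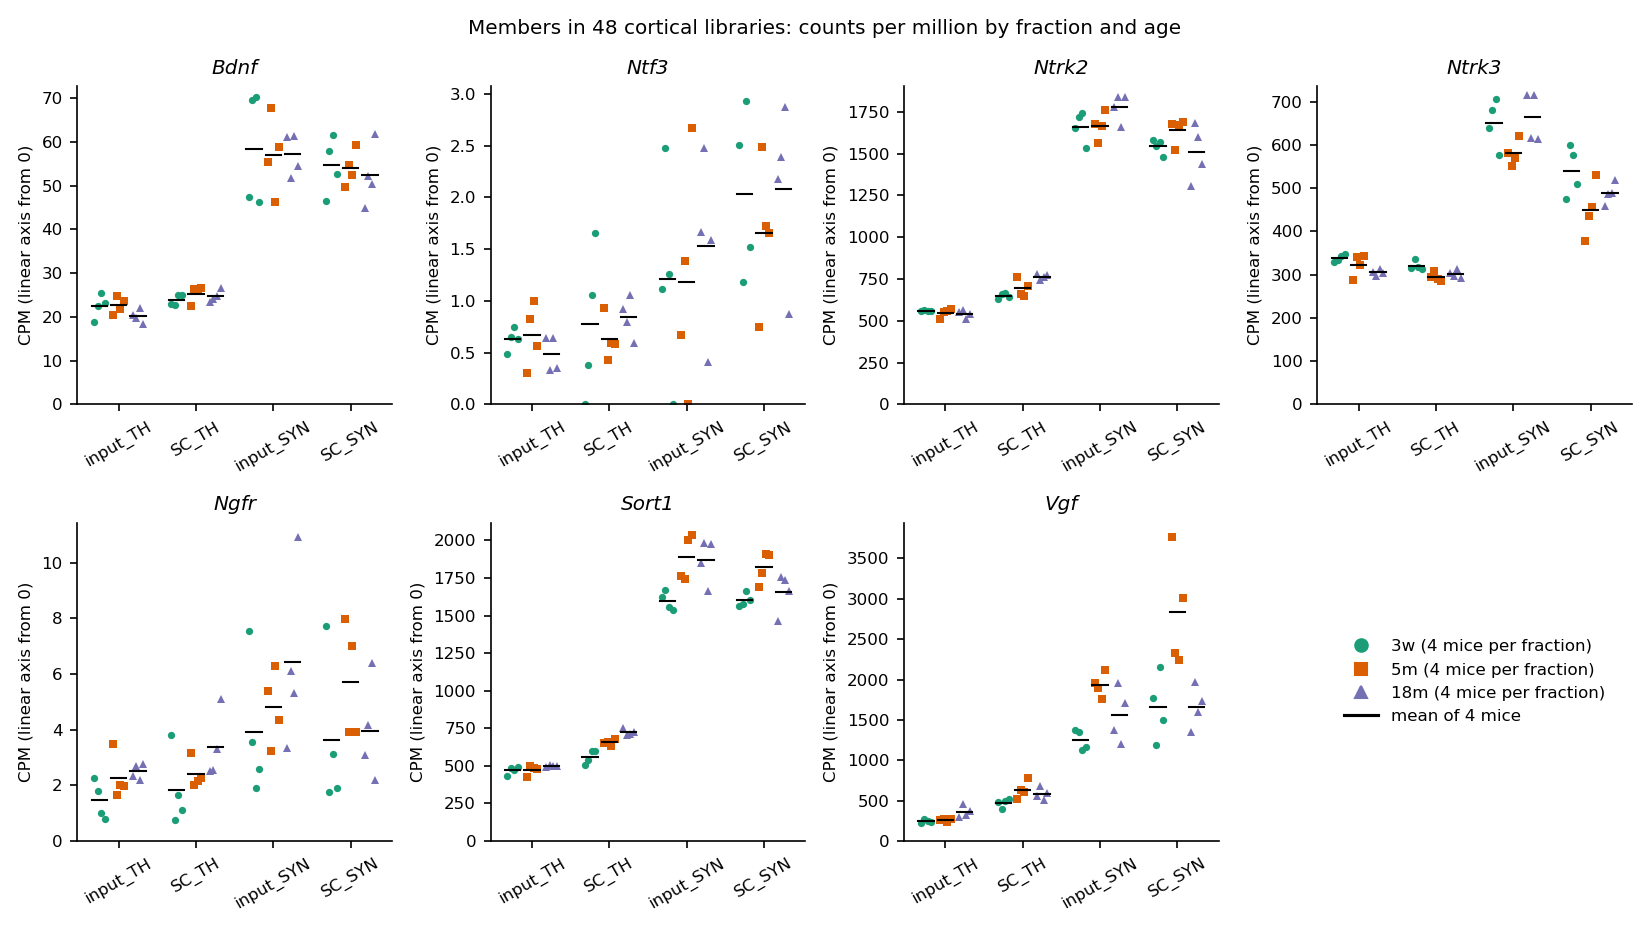
Level of each gene in CPM (linear axes that start at 0) in the 48 libraries, by fraction, with 1 point per mouse, coloured and shaped by age, and black bars for the mean of 4 mice. In each panel the SYN libraries lie to the right and, for Bdnf, Ntrk2, Ntrk3, Sort1 and Vgf, above every TH library.

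The first comparison asked whether the transcripts were enriched in synaptosomes, as ribosome-associated RNA (SC_SYN against SC_TH) and as total RNA (input_SYN against input_TH), averaged over the 3 ages. All 7 genes were higher in SYN in both, in a setting in which 36.9% of 16630 genes tested were higher and 42.3% lower in SC, and 36.7% of 17860 higher and 47.4% lower in input. The median log2 fold change of the 7 was 1.19 in SC, where that of all genes tested was -0.08, and 1.41 in input, where it was -0.17. Since higher calls are common between these fractions, sizes are more telling than calls. The share of all genes whose fraction groups do not overlap, or that differ in the same direction in every mouse, was not computed. A lack of overlap between fractions, or a like direction in every mouse, is therefore given only as a description. Library totals in place of TMM lowered the median of all genes to -0.63 in SC and -0.77 in input, and the share of higher genes among the calls from 46.6% to 25.7% and from 43.6% to 25%. All 7 values were smaller under that scaling and stayed above 0. In SC they were 0.60 for Bdnf, 0.86 for Ntf3, 0.63 for Ntrk2, 0.16 for Ntrk3, 0.87 for Sort1 and 1.30 for Vgf, and 0.28 for Ngfr, which no longer passed the test (adjusted p = 0.29, edgeR). In input they ran from 0.38 for Ntrk3 to 1.87 for Vgf.

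Among the ligands, Bdnf had 18.4 to 25.4 CPM in input_TH (median 21.9) and 22.4 to 26.6 CPM in SC_TH (median 24.9). In SYN it had 46.2 to 70.2 CPM in input (median 57.1) and 44.9 to 61.8 CPM in SC (median 52.6), so that no SYN library overlapped a TH library. Its log2 fold change was 1.15 ± 0.058 in SC (adjusted p = 1.43e-15, edgeR) and 1.41 ± 0.074 in input (adjusted p = 1.57e-16). Ntf3 was at a median of 0.695 CPM in SC_TH and 1.95 CPM in SC_SYN, with ranges of 0 to 1.65 and 0.751 to 2.93 CPM that overlap. Its log2 fold change of 1.41 ± 0.26 in SC (adjusted p = 2.44e-05, edgeR) and of 1.26 ± 0.32 in input (adjusted p = 7.99e-04) had a far larger SE than that of Bdnf. Within mice, the geometric mean of its SYN to TH ratio in SC was 2.81 at 3w, 2.09 at 5m and 2.04 at 18m. In input it was 1.24, 1.15 and 2.21, with SYN higher in 3 of 4 mice at each age.

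Of the Trk receptors, Ntrk2 ranged from 631 to 780.4 CPM in SC_TH (median 687) and from 1307 to 1689 CPM in SC_SYN (median 1576), without overlap. Its log2 fold change was 1.19 ± 0.045 in SC and 1.63 ± 0.038 in input (adjusted p = 7.11e-18 and 1.29e-24, edgeR). Ntrk3 was higher in SYN by 0.72 ± 0.048 in SC (adjusted p = 3.97e-13) and 0.97 ± 0.044 in input (adjusted p = 4.74e-18), from 286 to 337 CPM in SC_TH and 378 to 599 CPM in SC_SYN. These groups did not overlap either. Truncated TrkB is known in astrocytes, and the summed level of the 10 astrocyte markers was 1720 to 1954 CPM in SC_TH and 4767 to 6734 CPM in SC_SYN, with none of the 10 at 0 in any library. The part of astrocyte RNA in the value of Ntrk2 was not tested. In these bulk samples, fewer cells of a type and less RNA per cell cannot be told apart.

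The co-receptors of the precursors split by abundance. Sort1 had 504 to 749.7 CPM in SC_TH (median 655) and 1464 to 1913 CPM in SC_SYN (median 1677). It was higher in SYN by 1.43 ± 0.042 in SC (adjusted p = 1.43e-19, edgeR) and by 1.90 ± 0.043 in input (adjusted p = 1.08e-24), and lay at the 95.7th percentile of all log2 fold changes in SC. Ngfr had a median of 2.39 CPM in SC_TH and 3.91 CPM in SC_SYN, in overlapping ranges of 0.764 to 5.08 and 1.77 to 7.96 CPM. It differed by 0.84 ± 0.25 in SC (adjusted p = 0.00359) and 1.36 ± 0.22 in input (adjusted p = 2.39e-06). Within mice, the geometric mean of its SYN to TH ratio in SC was 1.83 at 3w, 2.18 at 5m and 1.13 at 18m, where SYN was higher in 3 of 4 mice. In input it was 2.30, 2.03 and 2.25.

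Vgf had the largest log2 fold change of the 7 in both contrasts. It ranged from 399 to 779.99 CPM in SC_TH (median 539) and from 1194 to 3769 CPM in SC_SYN (median 1871), and from 224 to 453 CPM in input_TH and 1124 to 2115 CPM in input_SYN. Neither pair overlapped. The log2 fold change was 1.86 ± 0.10 in SC (3.63-fold, adjusted p = 7.66e-15, edgeR) and 2.47 ± 0.075 in input (5.53-fold, adjusted p = 4.14e-22), which put Vgf at the 99.5th and the 98.4th percentile of the genes tested. The order of the 7 depended on the correction. With GC and length trends removed beside a mouse block, the SC values were 1.60 for Bdnf, 1.48 for Vgf, 0.96 for Ntrk3 and 0.57 for Ngfr, and the input value of Bdnf was 2.08. Each still passed the test.

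**Figure D2:**
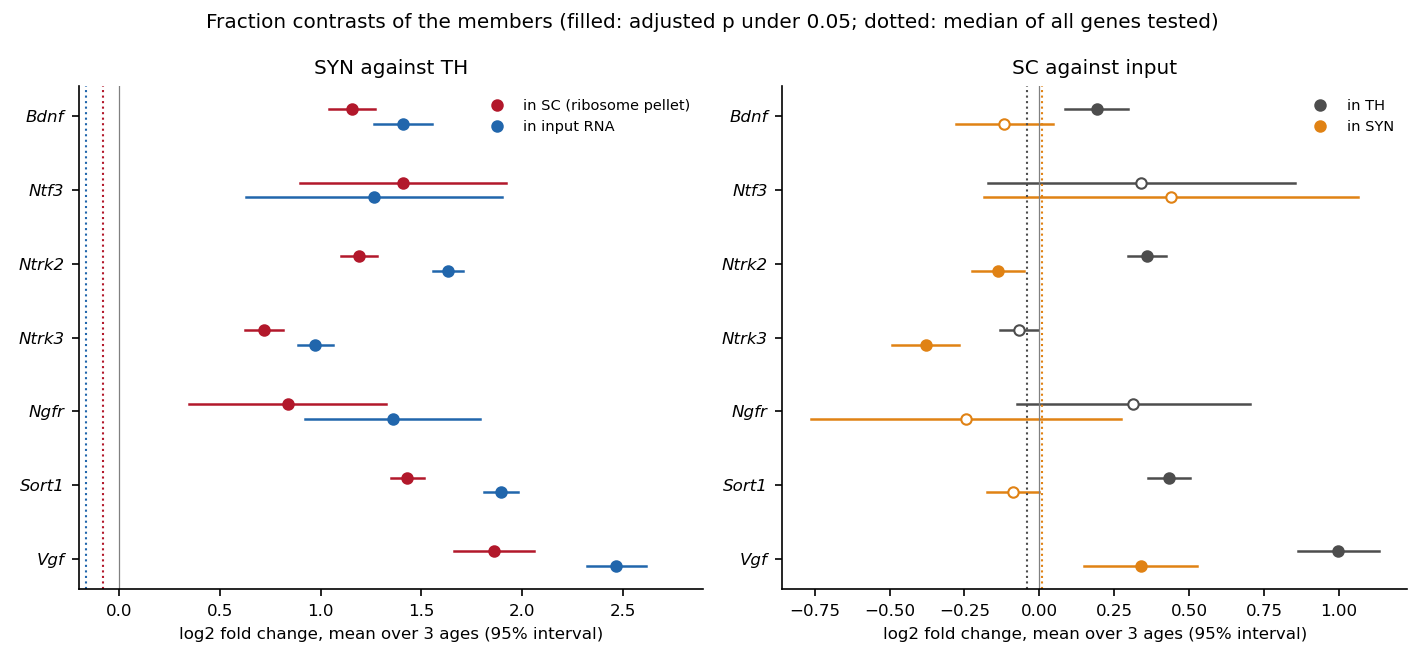
Log2 fold changes over the 3 ages with 95% intervals (1.96 SE), SYN against TH on the left and SC against input on the right, 1 row per gene, with filled circles for an adjusted p under 0.05 and dotted lines for the median of all genes tested. On the left all values lie to the right of 0, from 0.72 (Ntrk3 in SC) to 2.47 (Vgf in input), and on the right the TH values of Vgf, Sort1, Ntrk2 and Bdnf lie above 0 while only Vgf does so with a filled circle in SYN.

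The second comparison asked whether each transcript was higher or lower in the ribosome pellet than in input, relative to the other genes. SC was set against input within a compartment, which the study treats as translational efficiency (TE) for a single compartment. For SYN, the study also takes the ratio of SC_SYN to SC_TH, the SC contrast given above, as TE. These ratios of CPM do not give the share of a transcript that was in the pellet. In TH, 4 of the 7 genes were higher in SC and none was lower, where 35.6% of 18416 genes were higher and 40.2% lower. Vgf was higher by 1.00 ± 0.069 (adjusted p = 3.07e-13, edgeR), Sort1 by 0.43 ± 0.036 (adjusted p = 1.32e-11), Ntrk2 by 0.36 ± 0.032 (adjusted p = 7.73e-11) and Bdnf by 0.19 ± 0.053 (adjusted p = 0.00201). Ntrk3 differed by -0.07 ± 0.033 (adjusted p = 0.0614), Ntf3 by 0.34 ± 0.26 and Ngfr by 0.31 ± 0.20 (95% intervals -0.17 to 0.85 and -0.08 to 0.70). Ntrk3 lay below 0 with a called change in DESeq2 (-0.07, adjusted p = 0.0171) and above 0 with a mouse block and with GC and length trends removed (0.08, adjusted p = 0.0134), so its direction in TH depended on the processing.

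In SYN, Vgf alone was higher in SC, by 0.34 ± 0.097 (adjusted p = 0.0066, edgeR), and Ntrk3 and Ntrk2 were lower, by -0.38 ± 0.057 (adjusted p = 9.47e-06) and -0.14 ± 0.045 (adjusted p = 0.0147). Over all 14301 genes, 21.8% were higher and 21.5% lower. Ntrk3 had 552 to 715 CPM in input_SYN and 378 to 599 CPM in SC_SYN, and within mice the SC value was lower than the input value in 12 of 12. The value of Ntrk2 shrank to -0.05 (adjusted p = 0.431) with GC and length trends removed beside a mouse block, and without a filter on low counts it was no longer called. Bdnf (-0.12 ± 0.082), Sort1 (-0.09 ± 0.044), Ngfr (-0.25 ± 0.26) and Ntf3 (0.44 ± 0.32) did not pass the test. Sort1 passed it in DESeq2 (-0.10, adjusted p = 0.0101) and with GC and length trends removed beside a mouse block (-0.11, adjusted p = 0.0418).

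The enrichment in SYN was thus smaller in the ribosome pellet than in input RNA for 6 of the 7. This difference of differences was tested over all 48 libraries, a test chosen after the values were seen. It was negative for Vgf (-0.64 ± 0.13, adjusted p = 5.89e-05, edgeR), Sort1 (-0.49 ± 0.058, adjusted p = 2.34e-09), Ntrk2 (-0.47 ± 0.055, adjusted p = 1.93e-09), Ntrk3 (-0.28 ± 0.066, adjusted p = 4.6e-04) and Bdnf (-0.28 ± 0.096, adjusted p = 0.0158). Ngfr (-0.55 ± 0.35, adjusted p = 0.205) and Ntf3 (0.12 ± 0.44, adjusted p = 0.864) did not pass it. Of 18112 genes tested, 24.8% were lower, and the median was 0.01. The nuclear RNAs of input_TH, which the pellet holds less of, summed to 16917 to 19590 CPM in input_TH and 5588 to 14007 CPM in SC_TH, against 1807 to 4512 CPM in input_SYN and 973 to 3661 CPM in SC_SYN. Their part in the difference was not tested.

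Change with age was asked within each fraction, as 5m against 3w and 18m against 5m. Both steps share the 5m libraries, so they are not independent. The share of all genes whose age groups do not overlap was not computed. A lack of overlap is therefore given as a description and not as support for a change. Bdnf, Ntrk2, Ntrk3, Ngfr and Ntf3 had no change that passed the test in any fraction or step, Sort1 had 1 and Vgf had 4. In all genes tested, 11.8% changed in input_TH at the first step and 15.5% at the second, and 17.9% and 2.17% did so in SC_TH. In input_SYN the shares were 3.22% and 0.139%, and in SC_SYN they were 8.05% and 0.014%. Of the members tested, 0 of 6 and 1 of 6 changed in input_TH, 2 of 6 and 0 of 6 in SC_TH, 1 of 6 and 0 of 6 in input_SYN and 1 of 7 and 0 of 7 in SC_SYN. At counts this small the members' shares cannot be set apart from those of all genes. In SC_SYN at 18m against 5m, 2 of 14240 genes were called by edgeR, 322 by DESeq2, and 2474 had an unadjusted p under 0.05.

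Vgf rose between 3w and 5m in 3 of the 4 fractions. In input_SYN the 3w mice had 1370.5, 1353, 1124 and 1164 CPM and the 5m mice 1956, 1889, 1752 and 2115 CPM. The lowest 5m value was above the highest 3w value, and the log2 fold change was 0.59 ± 0.12 (adjusted p = 0.00908, edgeR). In SC_SYN the values were 1774, 1194, 2154 and 1495 CPM in 3w mice and 3769, 2333, 2246 and 3009.6 CPM in 5m mice. The groups again did not overlap, and the fold change was 0.74 ± 0.20 on the log2 scale (1.67-fold, adjusted p = 0.0331). In SC_TH Vgf went from 479, 399, 499.6 and 516 CPM to 520.1, 633, 600.1 and 779.99 CPM, a log2 fold change of 0.42 ± 0.12 (adjusted p = 0.0199). In input_TH, with 224, 266, 246 and 232 CPM at 3w and 258, 271, 233 and 276 CPM at 5m, the groups overlapped and the change was 0.10 ± 0.10 (adjusted p = 0.61).

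After 5m the estimate for Vgf was positive in input_TH and negative in the other fractions, and only the change in input_TH passed the test by edgeR. In input_TH it was higher at 18m, with 295, 453, 320.5 and 367 CPM, all above the 5m mice (log2 fold change 0.47 ± 0.10, adjusted p = 0.00765, edgeR). In input_SYN the 18m mice had 1378, 1959.6, 1197 and 1703 CPM, 3 of 4 below the lowest 5m mouse, and the change was -0.31 ± 0.12 (adjusted p = 0.389). In SC_SYN they had 1344.5, 1967, 1603 and 1733 CPM, all below the 5m mice, with a change of -0.75 ± 0.20 that missed the threshold (adjusted p = 0.16) and passed it in DESeq2 (-0.75, adjusted p = 0.0256). In SC_TH the 18m mice had 558, 684, 506 and 596 CPM, within the range of 5m or just under it, and the change was -0.10 ± 0.12 (adjusted p = 0.685).

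The difference between compartments was tested as an interaction. In input RNA the ratio of SYN to TH fell between 5m and 18m for Vgf by -0.77 ± 0.17 on the log2 scale (adjusted p = 0.0179, edgeR), 1 of 7 members where 2.42% of 17860 genes changed. Within mice the geometric mean of the ratio was 7.42 at 5m and 4.32 at 18m, with no overlap between the ages, and 5.17 at 3w. With the mouse as a block the value was -0.78 (adjusted p = 3.74e-04). In SC the same change was -0.66 ± 0.24 (adjusted p = 0.19), where 0% of 16630 genes were called by edgeR, 272 by DESeq2, and 2855 had an unadjusted p under 0.05. The step from 3w to 5m gave 0.52 ± 0.17 in input (adjusted p = 0.483, 0.0224% of all genes called) and 0.34 ± 0.24 in SC (adjusted p = 0.791, 0.0301% called).

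**Figure D3:**
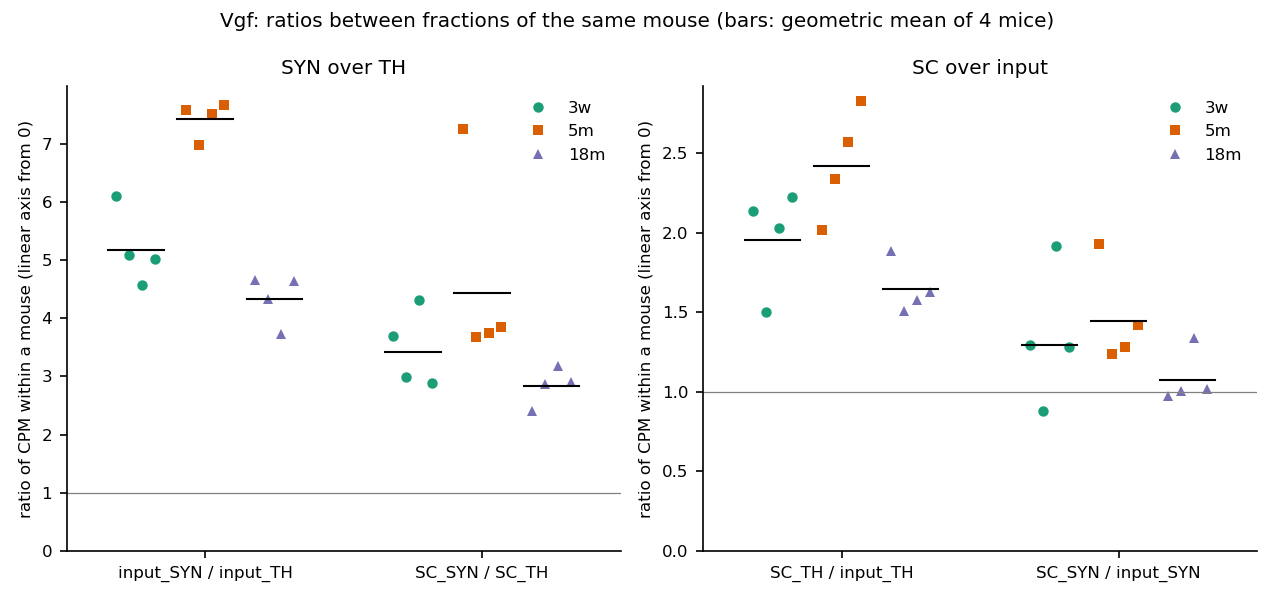
Ratios of Vgf CPM between 2 fractions of the same mouse on linear axes that start at 0, SYN over TH on the left and SC over input on the right, with 1 point per mouse and bars for the geometric mean of 4 mice. The input ratio of SYN to TH had a geometric mean of 7.42 at 5m and 4.32 at 18m without overlap, and 1 mouse at 5m stood above the others in the SC ratio.

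The same genes were asked whether their SC to input ratio moved with age. For Vgf in TH the geometric mean of the ratio within mice was 1.95 in the 3w group, 2.42 in the 5m group and 1.64 in the 18m group, and the fall between 5m and 18m was -0.57 ± 0.17 (adjusted p = 0.0679, edgeR), where 1.78% of 18416 genes changed. It passed the threshold with the mouse as a block (-0.55, adjusted p = 0.0235) and in DESeq2 (-0.59, adjusted p = 0.0259), and missed it with GC and length trends removed beside the block (-0.29, adjusted p = 0.0547). From 3w to 5m it changed by 0.30 ± 0.17 (adjusted p = 0.289), where 2.33% changed. In SYN no gene passed at either step (0% of 14301), with 473 and 393 genes at an unadjusted p under 0.05 and 0 and 0 called by DESeq2, and Vgf changed by 0.15 ± 0.24 and -0.44 ± 0.24. No other member passed an interaction test by edgeR.

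The age calls of Vgf depended on the correction for GC content and length. With these trends removed, its change from 3w to 5m was 0.34 ± 0.16 in SC_SYN (adjusted p = 0.212, edgeR) and 0.19 ± 0.086 in SC_TH (adjusted p = 0.139), and that from 5m to 18m in input_TH was 0.16 ± 0.073 (adjusted p = 0.207). The interaction in input went from -0.77 to -0.22 ± 0.11 (adjusted p = 0.512) when the trends were removed beside the mouse block. The rise in input_SYN from 3w to 5m, with 0.38 as its smallest value, was called under each of the 8 other settings and with each mouse left out. Directions were kept throughout. In SC_SYN the call from 3w to 5m was lost without mouse 188, 190, 191 or 194, in SC_TH without 188 or 194, and for the interaction without 192, 193 or 194.

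Other genes also changed with age in these libraries, some in the direction of Vgf and some against it. For 14 immediate early genes, which neurons switch on when active, the median of their log2 CPM in a library was 4.09 to 5.47 at 3w, 5.59 to 5.69 at 5m and 4.08 to 5.20 at 18m in SC_SYN, and 4.65 to 5.55, 5.28 to 5.51 and 4.21 to 5.34 in input_SYN. The SC_SYN values of the 4 mice at 5m were thus above all 8 others. Of single genes in that list, Fosb rose from 3w to 5m in SC_SYN (1.32 ± 0.25, adjusted p = 0.00632, edgeR) and input_SYN (0.92 ± 0.23, adjusted p = 0.0396), and Arc fell from 5m to 18m in input_SYN (-1.80 ± 0.29, adjusted p = 0.011). In input_TH, where Vgf rose from 5m to 18m, 6 of the 14 fell and none rose, where 15.5% of all genes changed. The 10 microglia markers summed to 639 to 729 CPM at 3w and 1112 to 1400 CPM at 5m in SC_SYN, where 7 of 10 rose, and the 10 oligodendrocyte markers to 8952 to 10884 CPM and 3590 to 3871 CPM, where 9 of 10 fell. Of all genes tested, 8.05% changed in SC_SYN at that step. None of these markers was at 0 in any library, and their part in the change of Vgf was not tested.

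Sort1 rose from 3w to 5m in SC_TH, from 504, 541, 596 and 600.03 CPM to 655, 655, 634 and 679 CPM (log2 fold change 0.23 ± 0.066, adjusted p = 0.0248, edgeR). The groups did not overlap, and at 18m it had 749.7, 705, 713 and 724 CPM above all 5m mice (0.15 ± 0.066, adjusted p = 0.239). In input_TH it stayed between 427 and 503 CPM over the 12 mice, with a change of 0.002 ± 0.053 at the first step (adjusted p = 0.991). In input_SYN and SC_SYN the 5m mice were above the 3w mice without overlap, by 0.21 ± 0.080 (adjusted p = 0.192) and 0.14 ± 0.094 (adjusted p = 0.352). Neither change passed the test. The SC_TH call was lost with GC and length trends removed (0.16, adjusted p = 0.0897), with only the 2 ages fitted (0.22, adjusted p = 0.0661) and without mouse 187, 188 or 194.

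For the other receptors and the ligands the 95% intervals give only a rough guide to what could have been missed. They are somewhat narrower than the edgeR test allows. For Ntrk3 in SC_TH at 5m against 3w the interval, -0.24 to -0.007, was wholly negative, whereas the unadjusted p was 0.0527 (edgeR). Changes somewhat beyond the intervals are therefore not excluded. Bdnf in SC_SYN had 46.5, 57.9, 61.5 and 52.7 CPM in 3w mice, 49.6, 54.6, 52.5 and 59.4 CPM at 5m and 44.9, 52.2, 50.3 and 61.8 CPM at 18m. The 3 groups overlapped, and the 95% intervals of its log2 change were -0.29 to 0.18 for the first step and -0.25 to 0.22 for the second. Ntrk2 in SC_SYN had 1579, 1547, 1572 and 1477 CPM at 3w, 1678, 1523, 1673 and 1689 CPM at 5m and 1307, 1682, 1602 and 1439 CPM at 18m, with intervals of -0.15 to 0.24 and -0.29 to 0.10. For Ntrk3 the interval of the first step in SC_SYN was -0.52 to -0.09, from 475, 599, 576 and 511 CPM to 378, 435, 458 and 531 CPM (-0.31 ± 0.11, adjusted p = 0.101, edgeR). It passed the threshold in DESeq2 (-0.30, adjusted p = 0.0409). In SC_TH the 5m mice had less Ntrk3 than the 3w mice without overlap (286 to 307 against 314 to 337 CPM), by -0.12 ± 0.059 (adjusted p = 0.154). This change did not pass the test.

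Ngfr gave wide intervals, from -0.27 to 1.46 for the first step in SC_SYN. Its 3w mice had 7.71, 1.77, 3.14 and 1.89 CPM there and its 5m mice 7.96, 3.90, 7.02 and 3.92 CPM. Mouse 187 had the highest 3w value of Ngfr in each fraction, at 2.26 CPM in input_TH, 3.82 in SC_TH, 7.54 in input_SYN and 7.71 in SC_SYN. Ntf3 changed by -0.30 ± 0.40 and 0.43 ± 0.36 in SC_SYN, from 6 to 14 reads a library at 3w, 5 to 21 at 5m and 4 to 36 at 18m. The 95% intervals of Ntf3 were -1.09 to 0.49 and -0.28 to 1.14, so that a change of either gene beyond 2-fold in 1 direction lay within them.

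**Figure D4:**
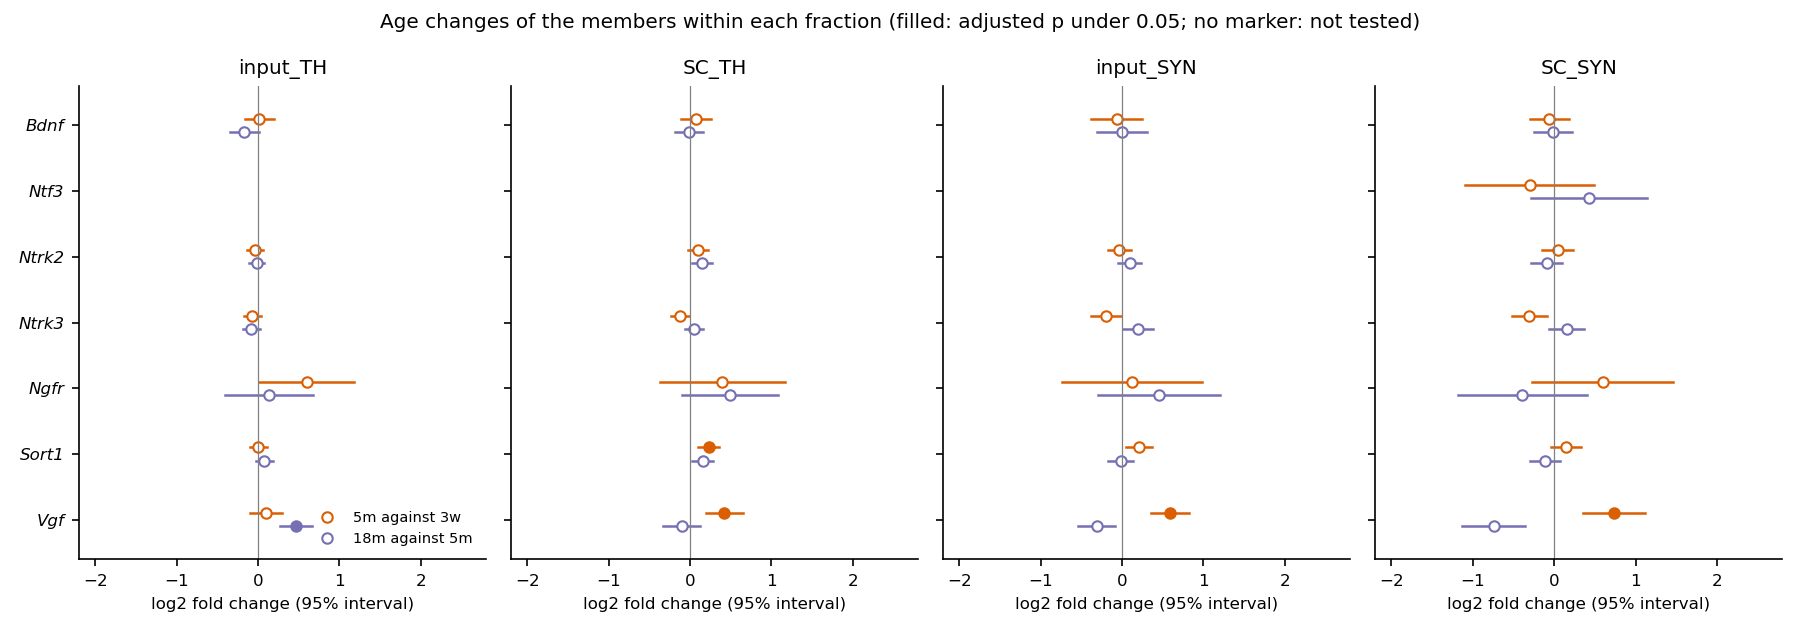
Log2 fold changes of each gene with age within the 4 fractions, with 95% intervals (1.96 SE), orange for 5m against 3w and purple for 18m against 5m, and filled circles for an adjusted p under 0.05. Filled circles are seen for Vgf in each fraction (0.42 to 0.74 in SC_TH, input_SYN and SC_SYN at the first step, 0.47 in input_TH at the second) and for Sort1 in SC_TH (0.23), and the intervals of Ngfr and Ntf3 are the widest.

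The rest of the pathway was described with 6 lists of 88 genes, ordered from ligand to kinase. Of 11 further ligands and receptors, 9 were tested in SC and 9 were higher in SYN, with a median log2 fold change of 1.34. They held the sortilin relatives Sorl1 (1.77), Sorcs3 (1.70), Sorcs2 (1.66) and Sorcs1 (1.34). Of the genes for proneurotrophin processing, 10 of 11 were higher and none lower (median 1.28), with the convertase genes Pcsk1 at 1.84 and Pcsk2 at 1.69, carboxypeptidase E (Cpe) at 1.84, while Mmp9 did not pass the test. Of 11 secretory granule genes, 8 were higher and 3 lower (median 1.52). Scg2 (1.89), Chga (1.88) and Chgb (1.78), the granins packed with Vgf in dense-core granules, were among the higher ones, while Cadps (-0.72) and Cadps2 (-0.68), cytosolic priming factors of granule release, were lower, as was Rgs4 (-0.95), which is in the list but codes for a cytosolic regulator of G-protein signalling.

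Among the adaptor and kinase genes, the shares called were near those of all genes in SC (36.9% higher and 42.3% lower). Of 22 Trk adaptor genes, 8 were higher and 7 lower in SC_SYN (median -0.04). Shc3 (1.48), a neuronal Shc adaptor, and Kidins220 (1.18), a membrane scaffold of Trk receptors, stood at one end and Sos1 (-0.70), which loads Ras, at the other. Of 23 genes of the kinase cascade, 8 were higher and 11 lower (median -0.18), with Akt2 at 1.05 among the higher ones. Of 10 p75 adaptor genes, 4 were higher and 5 lower (median -0.10), from Mapk8 (JNK1) at -1.17 to Prex1 at 0.84. In input the pattern was alike, with 9 of 10, 9 of 11 and 8 of 11 higher in the first 3 lists and 10 of 22, 9 of 23 and 5 of 10 in the others. Many members of the first 3 lists code for secreted or membrane proteins, as all 7 members do. Whether this class of protein has a part in the values was not tested.

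**Figure D5:**
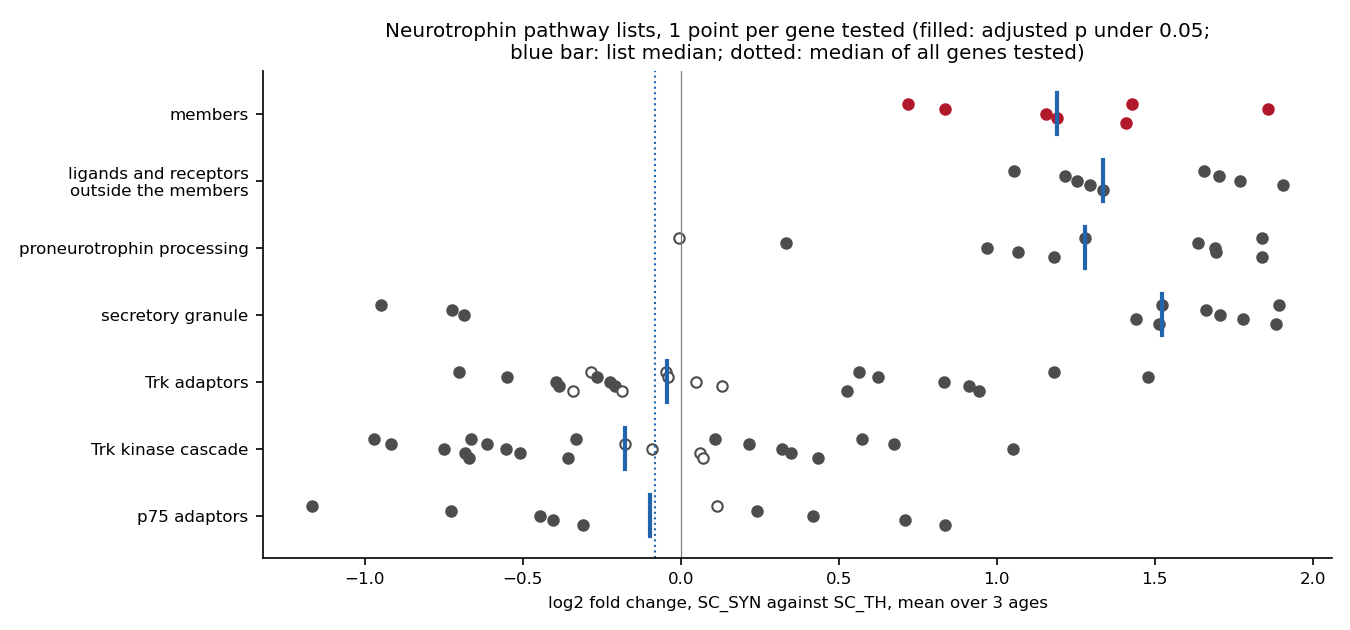
Log2 fold change of SC_SYN against SC_TH (mean over 3 ages) for each gene tested of the members and 6 pathway lists, with filled points for an adjusted p under 0.05, blue bars for list medians and a dotted line for the median of all genes. Ligands and receptors, processing and granule genes have medians between 1.28 and 1.52, and adaptors and kinases lie on both sides of 0 with medians between -0.18 and -0.04.

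With age, few pathway genes passed the test in SYN, and few of all genes did. Between 3w and 5m, 8.05% of all genes passed in SC_SYN and 3.22% in input_SYN. In SC_SYN between 3w and 5m, Pcsk6, a convertase gene, rose (0.60 ± 0.15, adjusted p = 0.0245, edgeR), and Plat, the gene of tissue plasminogen activator, which activates the plasmin that cuts proBDNF, fell (-0.77 ± 0.13, adjusted p = 0.00316). Irs2, an adaptor gene, rose (1.13 ± 0.24, adjusted p = 0.0108), and Nras (-0.81 ± 0.16, adjusted p = 0.00798) and Rgs4 (-1.04 ± 0.19, adjusted p = 0.00513) fell. Plat also fell in input_SYN (-0.90 ± 0.13) and SC_TH (-0.41 ± 0.12) and Rgs4 in each of the 4 fractions. No gene of the 6 lists passed in input_SYN or SC_SYN between 5m and 18m. Only 0.139% and 0.014% of all genes did so there, so this does not set the lists apart. In input_TH between 5m and 18m, Chga (0.58 ± 0.058, adjusted p = 1.47e-04) and Pcsk1n (0.66 ± 0.11, adjusted p = 0.00243), both granule genes, rose as Vgf did, and in the kinase cascade 6 genes rose and 6 fell, with Creb1 (-0.44 ± 0.075) among the latter. Of all genes tested, 15.5% changed in input_TH at that step. Pcsk1n shared with Vgf the fall of the SYN to TH ratio in input between 5m and 18m (-1.08 ± 0.26, adjusted p = 0.0278), where 2.42% of all genes changed. The value of Pcsk1n was not followed under the other settings, some of which took the call from Vgf.

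The genes whose level most resembled each member over the 12 groups of fraction and age were found by Pearson's r of mean log2 CPM among 14135 protein-coding genes. The 12 groups share mice and the large step from TH to SYN, so high values are common, and they are given as a description. Slc1a1, a neuronal glutamate transporter gene, was nearest to Bdnf (r = 0.998), Plxna4 to Ntrk2 (r = 0.998), Ankrd40 to Ntrk3 (r = 0.992) and Clcn6, an endosomal chloride-proton exchanger gene, to Sort1 (r = 0.999). Cnpy3 was nearest to Vgf (r = 0.994), followed by Igsf8 (r = 0.994) and Emc10 (r = 0.993). For the sparse gene Ntf3, the nearest were Irf5, Erap1 and Plek (r = 0.962, 0.955 and 0.953). Among the members, Ntrk2 and Sort1 had r = 0.997, Bdnf and Ntrk2 r = 0.993, and Ntf3 and Ntrk3 r = 0.622.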

How the data were processed

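Per the labels and the methods of the study, strand-specific rRNA-depleted libraries were aligned by the authors to GRCm38 with TopHat2 2.1 and reads were counted per gene with featureCounts, ignoring strand. The deposited values are raw counts of 48 libraries. All columns were used. Removal of duplicates by molecular identifiers was not stated in the sources used here. Symbols, positions, exonic length and GC content came from GENCODE for GRCm38, which matched 48144 of 48526 genes. The others held 0.0596% of counts.

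The test was that of edgeR 4.0.16 in R 4.3.3, with TMM, filterByExpr, glmQLFit and glmQLFTest. Each fraction was fitted alone for age, and pairs of fractions together for contrasts and interactions. Log2 CPM used a prior count of 2. Alternatives were DESeq2 1.42.0, library size, 2 other filters, no mitochondrially encoded genes, all 48 libraries, 2 ages only, lowess trends on GC content and length as offsets (span 0.5), the mouse as a block, and each mouse left out. The code was tested on simulated data. The 4 libraries of a mouse come from 1 animal and thus pair by design. Their deviations from group means, over all genes, correlated weakly (medians -0.00974 to 0.111 over 4 pairs of fractions). This does not show that the mouse can be ignored for a single gene. With the mouse as a block, the SE of the SYN to TH change of Vgf in input at 18m against 5m went from 0.17 to 0.11. That of Sort1 in SC at the same step went from 0.10 to 0.11. The study reports 2 sequencing runs, and the labels do not give the run of a library, so no run term was fitted. Replicates were separate mice. Their differences exceeded counting error by 1.98 to 32.2 times. The text names the 7 members, the list genes that passed a test or were at either end of their list, and the nearest genes by r, some of which are not reported here. The members and lists were chosen with earlier results of these data known.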

Additional observations from a re-analysis of the deposited data

Results flagged for a closer look

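The level of Ntrk2 in SC_SYN at 5m had 1 mouse apart from the others. Mouse 192 had 1523 CPM against 1673 to 1689 CPM in the other 3, a gap of 0.908 of the whole range, which is above the critical value of Dixon's test for 4 samples. Of 84 groups checked, 1 was marked in this way, and chance marks about 4.2.

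The change of Vgf between 5m and 18m differed between SYN and TH in input RNA by -0.77 on the log2 scale (adjusted p = 0.0179, edgeR). The level rose in input_TH and its estimate in input_SYN was negative without passing the test.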

How the results depend on the processing

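Of 2647 member values under the alternatives, 2601 stayed on their side of the threshold, 24 lost a call, 22 gained one, and none with a call turned its direction. The number of members called stood at 7 for both contrasts of SYN with TH, but at 6 in SC with library sizes and at 5 in both where genes needed at least 10 counts in every library. It went from 1 to 0 for input_TH at 18m against 5m with all 48 libraries in one fit and with GC and length trends removed, and ranged from 1 to 2 with a mouse left out. For SC_TH at 5m against 3w it went from 2 to 1 with all 48 libraries or only 2 ages, to 0 with the trends removed, and ranged from 0 to 2 with a mouse left out. For input_SYN at 5m against 3w it was 2 rather than 1 with all 48 libraries. For SC_SYN at 5m against 3w it was 2 rather than 1 in DESeq2 and with all 48 libraries, 0 with the trends removed, and 0 to 1 with a mouse left out. For SC_SYN at 18m against 5m it was 1 rather than 0 in DESeq2, without a filter and with all 48 libraries. For the SYN to TH change between 5m and 18m it was 1 rather than 0 in SC in DESeq2, and in input 0 rather than 1 with all 48 libraries and with the replicate block beside the trends, and 0 to 1 with a mouse left out. For the SC to input change in TH between 5m and 18m it was 1 rather than 0 in DESeq2, without a filter, with at least 10 counts, and with the replicate block, and 0 to 1 with a mouse left out. The mouse as a block changed no other member call. The cause of these differences was not tested. Over all genes, the number called moved by more than 1.5 times with DESeq2 in input_SYN (64 rather than 18) and SC_SYN (322 rather than 2) at 18m against 5m, in the SYN to TH change in input (1109 rather than 432) and in the SC to input change in TH (752 rather than 328 between 5m and 18m, 1175 rather than 429 between 3w and 5m). With all 48 libraries in one fit it was 183 rather than 2808 in input_TH and 1457 rather than 2 in SC_SYN at 18m against 5m, and 3464 rather than 1146 in SC_SYN at 5m against 3w. The SYN to TH change in input between 5m and 18m had 661 calls with the replicate block and 25 with the trends removed as well. Library sizes moved the share of higher genes among the calls from 40.3% to 59.2% and from 52.7% to 32.6% at the steps in input_TH, from 50% to 39.2% in SC_SYN at 5m against 3w, from 41.7% to 67.9% in the SYN to TH change in input between 5m and 18m, and from 43.1% to 22.8% and from 34.1% to 52.9% in the SC to input change in TH. Among SC to input values in SYN, that of Sort1 gained a call in DESeq2 and with the replicate block beside the trends, and that of Ntrk2 lost its call without a filter and with the same block and trends. Ntf3 had 0 to 36 reads in a library and Ngfr 3 to 94, and the parts of read number and of the mouse in their spread were not tested.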
